A study of Mus musculus with 51 samples.

Results

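Hoxb2, Hoxb3 and Hoxb4 are neighbouring genes of the HoxB cluster on mouse chromosome 11, and their transcripts were followed across blood-forming cells that carry or lack the leukaemia fusion Mll-AF9. The members were every probe set annotated to these genes alone, which gave 5 of the 34945 probe sets with 1 annotated gene, and 3 of 18193 genes. Hoxb2 had 1 probe set (1449397_at), Hoxb3 had 2 (1427605_at and 1456229_at) and Hoxb4 had 2 (1451761_at and 1460379_at). Haematopoietic stem cells (HSC) and their granulocyte-macrophage (GMP), common myeloid (CMP) and common lymphoid (CLP) progenitors had been sorted from the bone marrow of Mll-AF9 knock-in mice and of wild type mice. After repeat runs of 8 CMP replicates were averaged, 51 Affymetrix arrays gave 43 replicates. GMP had 4 Mll-AF9 and 5 wild type replicates, CMP had 4 Mll-AF9 and 5 wild type, CLP had 7 Mll-AF9 and 8 wild type, and HSC had 5 of either genotype. The design sets each Mll-AF9 population against its wild type match.

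In the knock-in, Mll (Kmt2a) is fused to Af9 (Mllt3). The sources used here do not give the zygosity of the knock-in, the sort gates, or the age, sex and strain of the mice. Replicates are not stated to come from separate mice, so the p-values measure only how these samples spread, which may be technical. Titles set the groups, and the source name of all 7 Mll-AF9 CLP samples and of 1 of 8 wild type CLP samples was that of CMP. CMP values were deposited with 9 decimals and all others with 2, so differences between CMP and another population may hold a difference in processing. In sorted populations measured in bulk, fewer cells that express a gene and less RNA per cell cannot be told apart.

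Hox genes encode homeodomain transcription factors that lie in clusters and are switched on in the order of their position along the chromosome during body patterning. In blood, several of them are active in stem cells and early progenitors and are shut off as cells mature, and they bind DNA together with cofactors of the Pbx and Meis families. Hoxb4 is best known here, because raising its level expands haematopoietic stem cells in mice. Hoxb3 is also found in early blood progenitors, and Hoxb2, at the anterior end of the cluster, is best known for patterning the hindbrain. Mll is a histone methyltransferase that keeps Hox genes on, and its CXXC domain, which the leukaemia fusions keep, binds DNA with unmethylated CG dinucleotides.

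The genes overlap one another. In the RefSeq annotation of GRCm38.p6, Hoxb3 spans chr11:96307101-96347930 with 11 annotated transcripts, and this span holds both Hoxb4 (chr11:96318267-96321638) and the microRNA gene Mir10a. Hoxb2 lies beyond it at chr11:96351632-96354020, and the long non-coding gene Hoxb3os (chr11:96343034-96353394) overlaps both Hoxb3 and Hoxb2. The array annotation gives no position within a transcript. Signal assigned to Hoxb3 or Hoxb4 can therefore come from shared or overlapping transcripts, and strand and isoform were not resolved here. Both Hoxb4 probe sets carry 1 accession in the annotation.

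**Figure D1:**
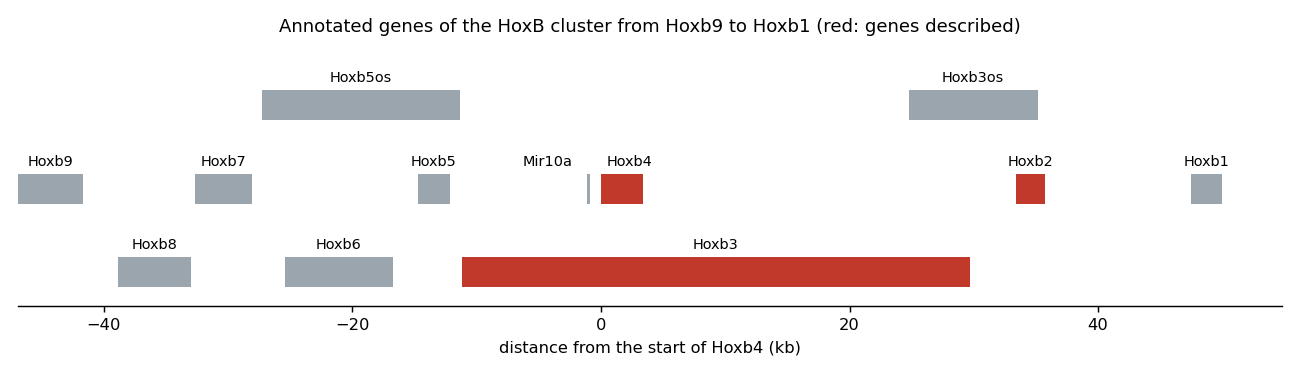
Annotated genes of the HoxB cluster, drawn to scale as the distance in kb from the annotated start of Hoxb4, with Hoxb2, Hoxb3 and Hoxb4 in red. Hoxb3 spans Hoxb4 and Mir10a, and Hoxb3os overlaps both Hoxb3 and Hoxb2.

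The promoter window of Hoxb4 is shown because it holds the CG dinucleotides that a CXXC domain can bind, and because no window of Hoxb2 or Hoxb3 was used here. It runs over 250 bases before and 50 bases after the annotated start on the plus strand (chr11:96318017-96318316, RefSeq, GRCm38.p6), 5′ to 3′, with every CG dinucleotide in capitals.
Hoxb4: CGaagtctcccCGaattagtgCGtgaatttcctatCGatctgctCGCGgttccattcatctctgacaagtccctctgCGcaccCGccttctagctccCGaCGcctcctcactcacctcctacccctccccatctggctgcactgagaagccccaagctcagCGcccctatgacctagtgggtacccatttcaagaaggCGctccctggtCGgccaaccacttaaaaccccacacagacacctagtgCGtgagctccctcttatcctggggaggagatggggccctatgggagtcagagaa
The window holds 14 CG dinucleotides, against a median of 7.0 over 32851 promoter windows of the same length, and 63.7% of those windows hold fewer. Its G and C content is 58.0%, against a median of 52.7%. On both strands, the window holds no CACGTG (an E-box, in 7.15% of windows), no CCAAT (37.4%), no GGGCGG (35.7%) and no TATAAA (13.6%), and 1 TAAT (58.0%), the core letters that homeodomains bind. These matches describe the letters only.

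Levels are given as log2 of the deposited intensity, which RMA (background correction, quantile normalisation and probe summary) had produced, so 1 unit is a doubling of intensity. The probe sets differed in how far they lay above background. The background level, 4.62 on the log2 scale, was the 95th percentile of the means of 127 probe sets for receptor and hair protein genes that blood cells are not known to use. Hoxb4 probe set 1460379_at lay above it in 43 of 43 replicates, with levels of 5.00 to 7.56. Hoxb3 probe set 1456229_at lay above it in 27 of 43 replicates (3.78 to 6.89) and Hoxb3 probe set 1427605_at in 36 of 43 (4.21 to 5.71). Hoxb4 probe set 1451761_at did so in 5 of 43 replicates (3.85 to 5.10), and Hoxb2 in 0 of 43 (2.91 to 4.58). Hoxb2 is therefore reported as not above background in any group, and levels of different probe sets are not set against each other.

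Across the series, 46.7% to 50.6% of probe sets per replicate lay above background. The GMP markers, 5 measured, were highest in titled GMP, at a mean of 11.99 in wild type and 12.08 in Mll-AF9. The CMP list, of megakaryocyte and erythroid priming genes, was highest in titled CMP, at 9.32 and 9.39. Such genes cannot tell CMP from progenitors already committed to those lineages. The GMP marker mean was 8.11 in wild type CMP, beside 8.37 in wild type HSC. The titled CLP also carried stem cell markers: the mean level of 4 measured HSC markers ran over 6.60 to 8.55 in wild type CLP and 7.35 to 8.37 in wild type HSC, with 3 of 4 above background in each. The CLP markers, 6 measured, ran over 6.80 to 8.53 in wild type CLP and 6.14 to 6.49 in wild type HSC. The titled HSC in turn carried some CLP markers. Dntt read 12.30 in wild type CLP and 11.59 in wild type HSC, and Flt3 10.05 and 9.86. Il7r (9.54 and 5.05) and Rag1 (6.82 and 3.28) were higher in CLP. The HSC marker Slamf1 was below background in both, at 4.14 in wild type CLP and 4.35 in wild type HSC. Y-linked genes were above a mean of 6 in 0 of the Mll-AF9 replicates and in 3 GMP, 3 CMP, 6 CLP and 2 HSC replicates of wild type, so sex and genotype overlap in part. Kmt2a was not called in any genotype comparison, and its position relative to the fusion was not resolved here.

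**Figure D2:**
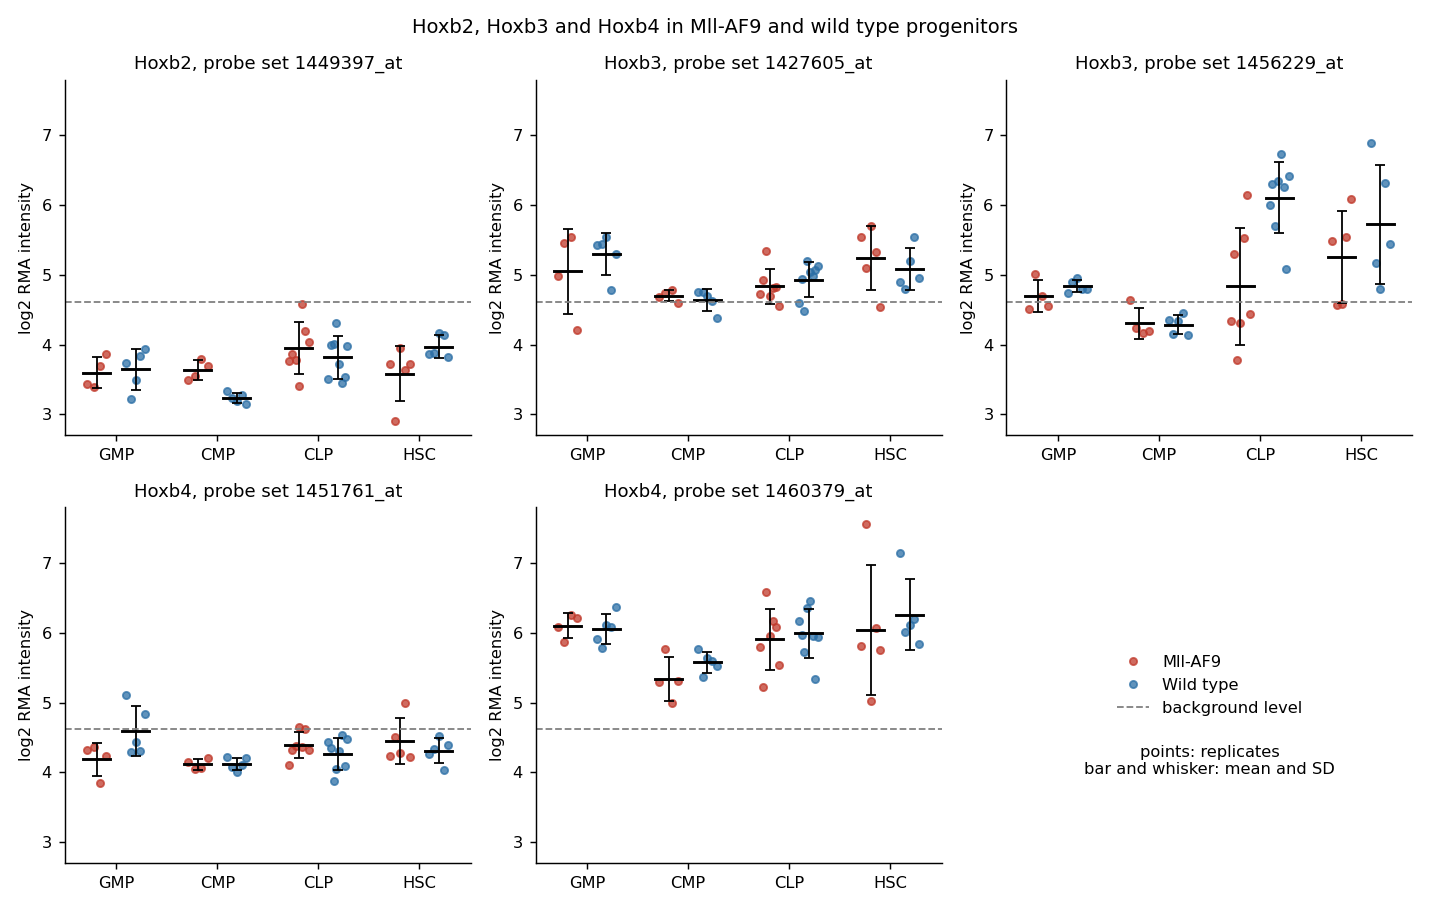
Log2 RMA intensity of each probe set in every replicate, Mll-AF9 in red left of wild type in blue, by population. Horizontal bars are means, whiskers are SD and the dashed line is the background level of 4.62. Hoxb4 1460379_at is above the line in all 43 replicates, and Hoxb2 is below it in all 43.

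Hoxb4 was measured in every group by probe set 1460379_at. In GMP its levels were 6.08, 5.86, 6.25 and 6.21 with Mll-AF9, against 5.92, 5.78, 6.12, 6.08 and 6.37 in wild type. In CMP they were 5.29, 5.77, 5.00 and 5.30 with Mll-AF9, against 5.77, 5.37, 5.65, 5.59 and 5.52 in wild type. Both pairs of groups overlapped, and CMP lay lowest of the populations in both genotypes. In CLP the lowest, median and highest levels were 5.22, 5.95 and 6.58 with Mll-AF9, against 5.34, 5.97 and 6.46 in wild type. In HSC the levels were 5.81, 7.56, 5.03, 6.07 and 5.75 with Mll-AF9, against 7.14, 6.01, 6.12, 6.20 and 5.84 in wild type. HSC were the most variable, with 1 high replicate in each genotype. The order of group means, from high to low, was wild type HSC (6.26), Mll-AF9 GMP (6.10), wild type GMP (6.05), Mll-AF9 HSC (6.04), wild type CLP (5.99), Mll-AF9 CLP (5.91), wild type CMP (5.58) and Mll-AF9 CMP (5.34). Every group overlapped the next in that order. The dimmer Hoxb4 probe set 1451761_at had group means of 4.12 to 4.60, all below background.

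Hoxb3 varied most between groups, by probe set 1456229_at. In CLP its lowest, median and highest levels were 3.78, 4.44 and 6.14 with Mll-AF9, against 5.09, 6.28 and 6.74 in wild type. In HSC they were 5.48, 4.57, 4.58, 5.55 and 6.10 with Mll-AF9, against 6.89, 5.17, 4.80, 6.32 and 5.44 in wild type. The groups overlapped in both populations, and all wild type CLP and HSC replicates were above background. In GMP the levels were 4.51, 5.02, 4.69 and 4.55 with Mll-AF9, against 4.75, 4.89, 4.96, 4.80 and 4.79 in wild type, near the background level of 4.62. In CMP they were 4.64, 4.24, 4.16 and 4.20 with Mll-AF9, against 4.36, 4.15, 4.33, 4.45 and 4.14 in wild type, with 1 of 9 replicates above background. Group means ran in the order wild type CLP (6.11), wild type HSC (5.72), Mll-AF9 HSC (5.26), wild type GMP (4.84), Mll-AF9 CLP (4.83), Mll-AF9 GMP (4.69), Mll-AF9 CMP (4.31) and wild type CMP (4.28), and each overlapped its neighbour.

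The other Hoxb3 probe set, 1427605_at, gave another order. Its group means ran over a narrow range, with wild type GMP highest (5.30 ± 0.30, SD, n = 5) and wild type CMP lowest (4.64 ± 0.15, SD, n = 5). Over the 43 replicates the Hoxb3 probe sets correlated with Pearson r = 0.15, and r = -0.09 over the 34 replicates without CMP. The Hoxb4 probe sets correlated with r = 0.28, and 0.13 without CMP. These are descriptions over replicates that share groups and arrays. Results below are thus given by probe set and not by gene.

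Mll-AF9 and wild type cells were compared within each population with limma's moderated test, adjusted by Benjamini-Hochberg over 34945 probe sets. None of the 20 member comparisons of the 5 probe sets in 4 populations passed an adjusted p of 0.05, and 2 had an unadjusted p below 0.05. Over all probe sets, 0.155% were called in GMP, 0.229% in CMP and 0.246% in CLP, with 0.0114% in HSC. Groups did not overlap in 1 of the 20 comparisons, Hoxb2 in CMP, while over all probe sets 3.64% did not overlap in GMP, 2.38% in CMP and 0.195% in CLP, with 1.2% in HSC. A miss does not show equal levels, and the intervals below give what the replicate numbers allow.

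**Figure D3:**
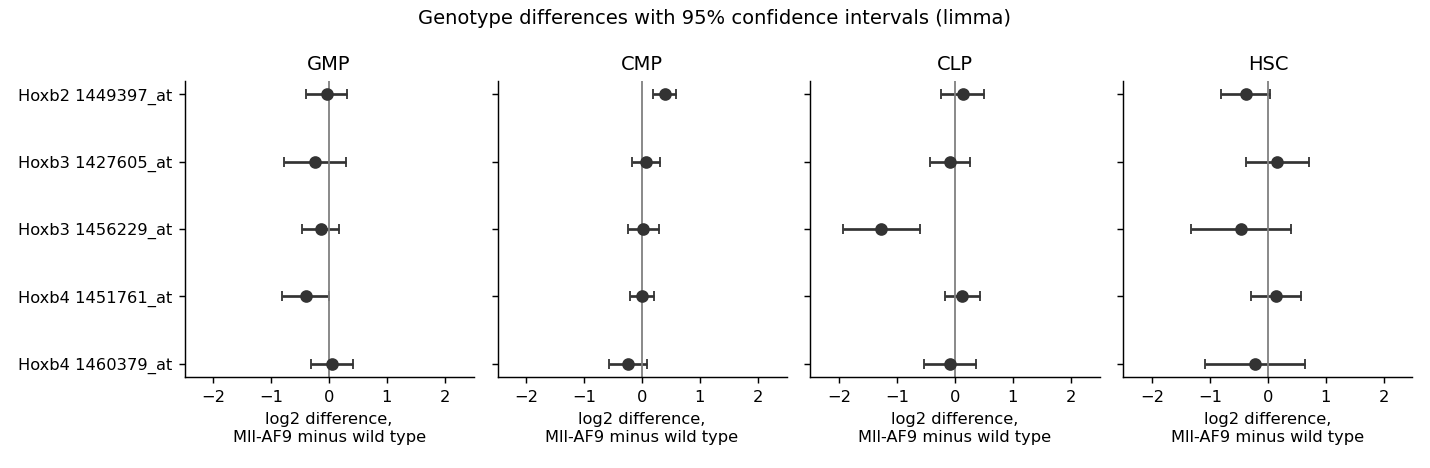
Log2 difference of each probe set, Mll-AF9 minus wild type, in 4 populations, with limma's 95% confidence interval. Only Hoxb2 in CMP (0.40) and Hoxb3 1456229_at in CLP (-1.27) have intervals that leave out 0, and neither passes the adjusted threshold.

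For Hoxb4 1460379_at the difference, Mll-AF9 minus wild type, was 0.05 ± 0.17 (SE) in GMP, with a 95% interval of -0.32 to 0.42. It was -0.24 ± 0.15 in CMP (-0.57 to 0.09) and -0.09 ± 0.22 in CLP (-0.54 to 0.37). In HSC it was -0.22 ± 0.40 (-1.08 to 0.64), and single replicates moved it, to -0.60 without Mll-AF9 replicate 2, 0.03 without Mll-AF9 replicate 3 and 0.00 without wild type replicate 1. The limma adjusted p-values ran over 0.899 to 0.965. The interval was widest in HSC, where it reached a fold of 0.472 on the low side and 1.56 on the high side. The second Hoxb4 probe set differed by -0.41 ± 0.19 in GMP (adjusted p = 0.588, limma), between means of 4.19 in Mll-AF9 and 4.60 in wild type GMP that both lay below background.

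Hoxb3 1456229_at had the widest gap between genotypes, in CLP. It averaged 4.83 ± 0.84 in Mll-AF9 CLP and 6.11 ± 0.51 in wild type CLP (SD, n = 7 and 8), a difference of -1.27 ± 0.32 (SE; 95% interval -1.94 to -0.60; unadjusted p = 0.000802, adjusted p = 0.164, limma). Of the replicates, 3 of 7 in Mll-AF9 CLP and 8 of 8 in wild type CLP were above background, so no fold is given. Replicates 2, 5 and 6 of Mll-AF9 CLP lay within the wild type range and the other 4 below it. The call depended on the fit: in 1 model of all 8 groups the same difference had an SE of 0.28 and an adjusted p of 0.00893. Without Mll-AF9 CLP replicate 6, the highest of its group, it was -1.49 with an adjusted p of 0.0417. The second Hoxb3 probe set differed by -0.09 ± 0.17 in CLP (adjusted p = 0.888, limma).

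Other measures were set beside Hoxb3 in CLP. The difference between 3′ and 5′ control probe sets of Actb and Gapdh, which grows as RNA is shortened, was 4.18 ± 0.53 in Mll-AF9 CLP and 3.69 ± 0.21 in wild type CLP (SD). The 3 Mll-AF9 replicates with the highest such difference (4.32, 4.87 and 4.93) had Hoxb3 levels of 3.78, 4.34 and 4.31. In wild type CLP, replicate 7 had the lowest difference (3.36) and the lowest Hoxb3 (5.09). Wild type replicate 4 had the highest difference (3.91) with a Hoxb3 level of 6.35. No wild type CLP replicate reached the differences of those 3 Mll-AF9 replicates, so wild type cannot show how Hoxb3 reads there. With that difference as a covariate the Hoxb3 gap was -0.89 ± 0.36 in CLP alone (adjusted p = 0.774, limma) and -1.28 ± 0.30 in the model of all 8 groups (adjusted p = 0.0211). Of the CLP markers, 2 of 13 probe sets, both of the B-lineage factor Ebf1, were called lower in Mll-AF9 CLP (both at means below background there), and the median difference of the list was -0.70, against 0.04 over all probe sets. In this comparison 0.246% of all probe sets were called. The CLP marker Il7r ran over 7.70 to 10.91 in Mll-AF9 CLP and 7.16 to 10.94 in wild type CLP. The mean CLP marker level ran over 6.94 to 8.53 in Mll-AF9 CLP and 6.80 to 8.53 in wild type CLP, with 5 of 6 above background in each, and that of the HSC markers over 7.36 to 9.06 in Mll-AF9 CLP and 6.60 to 8.55 in wild type CLP, with 1 of 9 probe sets (Mecom) called higher. Y-linked genes were above a mean of 6 in 0 of 7 Mll-AF9 and 6 of 8 wild type CLP replicates. Between replicates below it, which left only replicates 4 and 8 of wild type CLP, the Hoxb3 gap was -1.55 ± 0.52 (adjusted p = 0.9995, limma). The part of RNA quality, cell makeup and sex in the gap was not tested further.

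**Figure D4:**
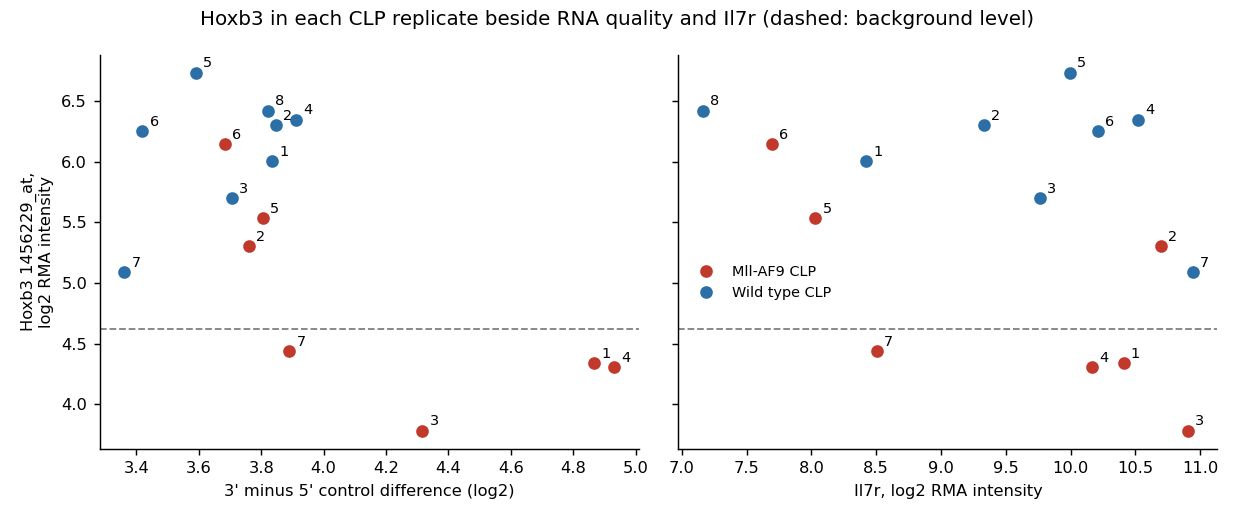
Hoxb3 1456229_at (log2 RMA intensity) in each CLP replicate, numbered, against the 3′ minus 5′ control difference (left, log2) and Il7r (right, log2 RMA intensity), with Mll-AF9 in red and wild type in blue. Mll-AF9 replicates 1, 3 and 4 have both the highest control differences and low Hoxb3, and replicate 7 has low Hoxb3 with a control difference of 3.89, within the wild type range of 3.36 to 3.91.

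In the other populations Hoxb3 gave smaller gaps. Probe set 1456229_at differed by -0.15 ± 0.15 in GMP, 0.02 ± 0.12 in CMP and -0.47 ± 0.41 in HSC, with adjusted p-values of 0.839, 0.994 and 0.886 (limma). Probe set 1427605_at differed by -0.25 ± 0.25 in GMP, 0.06 ± 0.11 in CMP and 0.16 ± 0.25 in HSC. All 6 pairs of groups overlapped.

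Hoxb2 differed most in CMP, but at levels below background. Its values were 3.49, 3.55, 3.80 and 3.69 in Mll-AF9 CMP, against 3.34, 3.23, 3.20, 3.27 and 3.15 in wild type CMP, so every Mll-AF9 replicate was higher. The difference was 0.40 ± 0.09 (SE; unadjusted p = 0.000805, adjusted p = 0.157, limma). Both groups lie below background, so this is a difference in signal and no size is read from it. In the other populations Hoxb2 differed by -0.04 ± 0.17 in GMP, 0.13 ± 0.18 in CLP and -0.39 ± 0.20 in HSC, each with overlapping groups.

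Whether the genotype difference itself varied between populations was tested by interaction contrasts in the limma model of all 8 groups. None of 30 tests (5 probe sets, 6 pairs of populations) passed, and 6 had an unadjusted p below 0.05. For Hoxb3 1456229_at the genotype difference in GMP exceeded that in CLP by 1.13 ± 0.45 (adjusted p = 0.473) and that in CMP exceeded it by 1.30 ± 0.45 (adjusted p = 0.999). Over all probe sets, 0.126% were called between CLP and HSC, 0.0601% between GMP and CLP, 0.0515% between CMP and CLP, 0.00858% between GMP and HSC, and 0% between CMP and HSC and between GMP and CMP. The lower signal of Hoxb3 1456229_at in Mll-AF9 CLP, itself not called in the main fit, was therefore not shown to be particular to CLP.

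Populations were then compared within wild type bone marrow, again in the model of all 8 groups. Hoxb3 1456229_at was lower in titled GMP and CMP than in titled HSC and CLP, although the GMP and HSC replicates overlapped. It averaged 4.84 ± 0.09 in GMP and 5.72 ± 0.86 in HSC (SD, n = 5 each), a difference of -0.89 ± 0.34 (adjusted p = 0.0382, limma). Against CLP (6.11 ± 0.51, n = 8) the GMP difference was -1.27 ± 0.31 (adjusted p = 0.000951). CMP averaged 4.28 ± 0.14, below background, and was called lower than HSC (adjusted p = 0.00152) and than CLP (adjusted p = 1.32e-05). With CMP replicates raised to the background level, the means differed 2.15-fold from HSC and 2.81-fold from CLP. These folds leave out the spread between replicates. The 95% intervals of the log2 differences as measured were -2.12 to -0.75 against HSC and -2.44 to -1.21 against CLP. CLP and HSC differed by 0.38 ± 0.31 (adjusted p = 0.756), with a 95% interval of -0.23 to 1.00. The other Hoxb3 probe set, 1427605_at, differed in the other direction for GMP, by 0.22 ± 0.21 against HSC (adjusted p = 0.443) and 0.37 ± 0.19 against CLP (adjusted p = 0.119), and was not called in either.

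These calls stand against many others. Over all probe sets, 35% were called in wild type GMP against HSC, 19.2% in CMP against HSC, 0.226% in CLP against HSC, 28.5% in GMP against CMP, 39.8% in GMP against CLP and 20.2% in CMP against CLP. Of the 30 tests of the 5 probe sets in wild type, 8 were called and 12 had an unadjusted p below 0.05. Over all probe sets the median difference was 0.11 for GMP against HSC and 0.11 for GMP against CLP, so relative to that shift the Hoxb3 differences are larger. The GMP against HSC call was lost in 7 of 50 alternatives. Most of the 50 left out a replicate of another group, which cannot move this difference. Leaving out a replicate of wild type GMP or HSC lost the call in most cases. Without wild type HSC replicate 1, which held the highest Hoxb3 level of the group, the difference was -0.59 (adjusted p = 0.188), and without replicate 4 it was -0.74 (adjusted p = 0.112). The call was also lost without wild type GMP replicate 1, 2, 4 or 5 in turn, and without the CMP arrays, at adjusted p-values of 0.0539 to 0.0679.

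**Figure D5:**
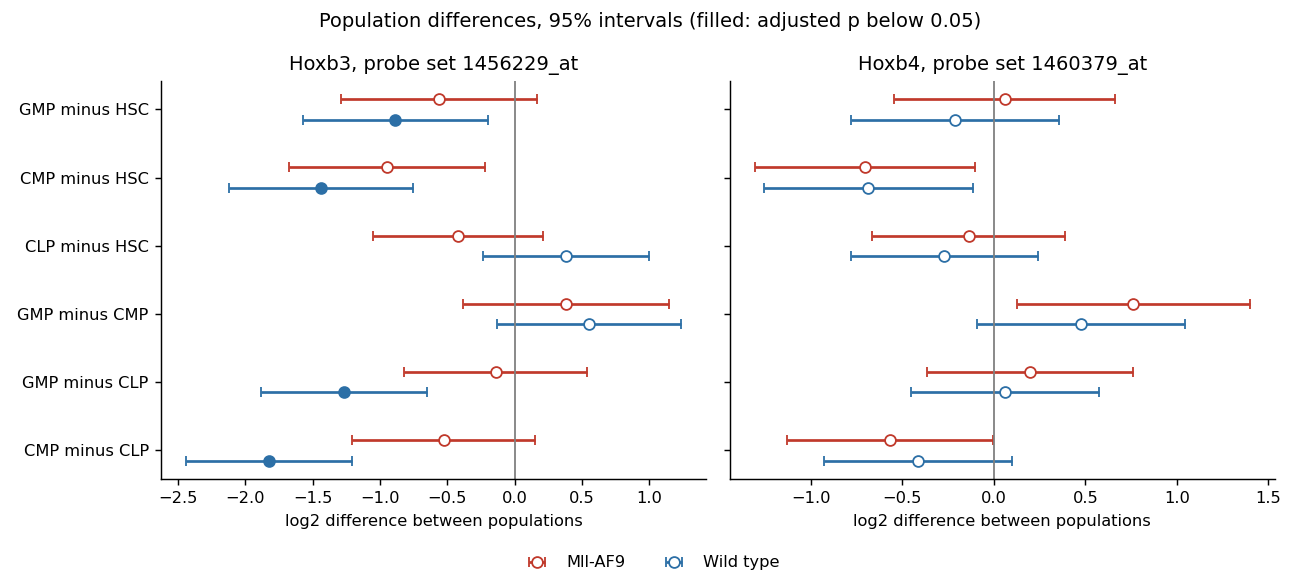
Differences between populations (log2) for Hoxb3 1456229_at and Hoxb4 1460379_at with 95% confidence intervals, Mll-AF9 in red above wild type in blue. Filled points pass an adjusted p of 0.05, and the 4 filled points are all Hoxb3 in wild type.

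Hoxb4 1460379_at was called in 0 of 6 wild type comparisons, with 1 unadjusted p below 0.05 (limma). That was CMP, at 5.58 ± 0.15, against HSC, at 6.26 ± 0.51 (SD, n = 5 each), a difference of -0.68 ± 0.28 (adjusted p = 0.0863). It was called (adjusted p = 0.0287) in the same model without Mll-AF9 HSC replicate 2, and was -0.46 (adjusted p = 0.333) without wild type HSC replicate 1, the highest of its group at 7.14. GMP and HSC differed by -0.21 ± 0.28, with a 95% interval of -0.78 to 0.36, and CLP and HSC by -0.27 ± 0.25. Whether Hoxb4 and Hoxb3 differ in this was not tested. Hoxb4 1451761_at was called higher in GMP than in CMP by 0.47 ± 0.16 (adjusted p = 0.0217), at means of 4.60 in GMP and 4.12 in CMP that lay below background. This call was lost under renewed quantile normalisation (0.42, adjusted p = 0.0505) and without wild type GMP replicate 1 (0.35, adjusted p = 0.112), GMP replicate 5 (0.41, adjusted p = 0.0671) or CMP replicate 3 (0.44, adjusted p = 0.0524).

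The remaining wild type calls all involved CMP. Hoxb3 1427605_at was higher in GMP than in CMP by 0.66 ± 0.21 (adjusted p = 0.0148, limma). Its levels were 4.78, 5.30, 5.43, 5.44 and 5.54 in GMP and 4.38, 4.62, 4.70, 4.75 and 4.75 in CMP. Hoxb2 was also called in CMP, at 3.24 ± 0.07, against HSC, at 3.97 ± 0.16 (adjusted p = 0.00228), and against CLP, at 3.81 ± 0.31 (adjusted p = 0.00752). Every replicate lay below background, so these signals give no size of a difference in Hoxb2 RNA. Of the 15 wild type tests that use no CMP group, 2 were called, both of Hoxb3 1456229_at. Between runs of the same CMP replicate, Hoxb2 was higher in the second run in 6 of 8 replicates, by a median of 0.31, and Hoxb4 1460379_at in 1 of 8, with a median difference of -0.14. The part of processing in the CMP differences was not tested.

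Within Mll-AF9 bone marrow none of the 30 tests was called, and 7 had an unadjusted p below 0.05 (limma). Over all probe sets, 30.4% were called in GMP against HSC, 17.2% in CMP against HSC, 2.97% in CLP against HSC, 19.7% in GMP against CMP, 27.4% in GMP against CLP and 16.4% in CMP against CLP. Hoxb3 1456229_at differed by -0.56 ± 0.36 between GMP and HSC (adjusted p = 0.247), -0.95 ± 0.36 between CMP and HSC (adjusted p = 0.0637) and -0.14 ± 0.34 between GMP and CLP (adjusted p = 0.797). Hoxb4 1460379_at was 6.10 ± 0.18 in GMP and 5.34 ± 0.32 in CMP (SD, n = 4 each), a difference of 0.76 ± 0.32 (adjusted p = 0.0833). The calls in wild type and their absence in Mll-AF9 do not show a difference between genotypes, since the tests of that difference did not pass. Leaving out 1 replicate gave 1 call in 5 cases (wild type HSC replicate 1, and Mll-AF9 GMP replicate 4, CLP replicates 3 and 6 and HSC replicate 5) and 2 calls without Mll-AF9 HSC replicate 2 or 3. Without HSC replicate 2, which held the highest Hoxb4 level, the calls were Hoxb3 1456229_at lower in CMP than in HSC (-1.12, adjusted p = 0.0349) and Hoxb4 1460379_at higher in GMP than in CMP (adjusted p = 0.029).

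Mll-AF9 GMP were also set beside wild type HSC. Hoxb4 1460379_at averaged 6.10 ± 0.18 in Mll-AF9 GMP and 6.26 ± 0.51 in wild type HSC (SD, n = 4 and 5), a difference of -0.16 ± 0.30 with a 95% interval of -0.76 to 0.44 (adjusted p = 0.733, limma). Hoxb3 1456229_at averaged 4.69 ± 0.23 in Mll-AF9 GMP and 5.72 ± 0.86 in wild type HSC, a difference of -1.03 ± 0.36 (adjusted p = 0.027), and was the only 1 of 5 probe sets called, where 28.6% of all probe sets were. That call was lost without wild type HSC replicate 1 (-0.74, adjusted p = 0.129) or replicate 4 (-0.88, adjusted p = 0.0791) and without Mll-AF9 GMP replicate 1 (adjusted p = 0.0694), 3 (adjusted p = 0.0543) or 4 (adjusted p = 0.063). It was also lost without the CMP arrays (adjusted p = 0.0526).

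The other genes of the pathway were counted from lists. None of the 6 other HoxB genes measured (Hoxb1, Hoxb5, Hoxb6, Hoxb7, Hoxb9 and Hoxb13) lay above background or was called, in either direction, in the 4 genotype comparisons or in the 3 wild type comparisons with HSC. Of all probe sets, 0.0114% (HSC) to 0.246% (CLP) were called between genotypes, so a count of 0 there says nothing particular to these genes. In wild type against HSC, 35% were called for GMP, 19.2% for CMP and 0.226% for CLP. Among 9 probe sets of 5 paralogues from groups 2 to 4 of the other clusters, Hoxa2 was called higher in Mll-AF9 CMP (adjusted p = 0.0298, limma), at means of 4.25 in Mll-AF9 and 3.15 in wild type. Hoxa3 was called higher in Mll-AF9 CLP by 1 probe set (adjusted p = 0.0389), at 4.20 in Mll-AF9 and 3.17 in wild type. All of these means lie below background. Over all probe sets, 0.229% were called between genotypes in CMP and 0.246% in CLP. The median difference of the paralogues was 0.03 in GMP, 0.16 in CMP and 0.16 in CLP, with 0.17 in HSC, beside -0.02, -0.00, 0.04 and 0.01 over all probe sets. In wild type GMP against HSC, 3 paralogue probe sets were higher and 2 lower, where 35% of all probe sets were called. In CMP against HSC 0 were higher and 1 lower, where 19.2% of all were called.

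Hox proteins bind DNA with Meis and Pbx proteins, and 20 probe sets of 8 such cofactors were measured. With Mll-AF9, 2 were called higher and 0 lower in GMP, and 1 higher and 1 lower in CMP. The counts were 0 higher and 2 lower in CLP, and 0 in HSC. The share of all probe sets called between genotypes was 0.246% for CLP, 0.229% for CMP and 0.155% for GMP, with HSC lowest at 0.0114%. Meis1, a partner of Hox proteins in leukaemia, was called higher in Mll-AF9 GMP by 2 probe sets. The brighter read 8.12 in Mll-AF9 and 6.66 in wild type GMP (1.46 ± 0.18, adjusted p = 0.00303, limma), and the other differed by 1.56 ± 0.26. In CMP that other probe set read 6.86 in Mll-AF9 and 4.89 in wild type (1.97 ± 0.26, adjusted p = 0.00519). Pbx3 was lower in Mll-AF9 CMP, at 5.37 against 6.63 in wild type, and in Mll-AF9 CLP, at 3.85, below background, against 6.94 in wild type (adjusted p = 0.00163). Meis2 was called lower in Mll-AF9 CLP, below background in both genotypes. In wild type GMP against HSC, 2 cofactor probe sets were higher and 4 lower, where 35% of all probe sets were called. Meis1 differed by -3.53, -3.15 and -2.20 in 3 of the 4.

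Regulators of Hox genes in development or blood were counted as well, among them Kmt2a, its partner Men1, the methyltransferase Dot1l, the Usf and Nfy factors and Polycomb genes. None of their 45 probe sets from 21 genes was called in any of the 4 genotype comparisons. Of all probe sets, 0.0114% (HSC) to 0.246% (CLP) were called in these, so a count of 0 says nothing particular to the regulators. The median difference of the regulators was -0.03 in GMP, 0.03 in CMP and -0.00 in CLP, with 0.05 in HSC. Egr2, a zinc finger factor that drives Hoxb2 in the mouse hindbrain, read 4.39 and 4.46 in wild type GMP, below background, against 7.79 and 6.80 in HSC. Kmt2a read 4.46 in GMP, below background, against 6.27 in HSC, and the Polycomb subunit Suz12 read 7.75 in GMP against 9.55 in HSC. In wild type GMP, 6 were higher and 12 lower than in HSC, with these the furthest down, and in wild type CMP 5 were higher and 1 lower. Over all probe sets 35% were called in GMP against HSC and 19.2% in CMP against HSC, so these counts say nothing particular to the regulators. In wild type CLP against HSC none was called, where 0.226% of all probe sets were.

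Genes whose levels ran most like each gene over the 43 replicates were found by Pearson r, as a description, on the brighter probe set of each. For Hoxb3 1456229_at they were Itsn1 (0.84), Eps8 (0.83), Sult1a1 (0.82), Spry1 (0.80) and Hdgfl3 (0.79), and without CMP these values were 0.74 to 0.83. For Hoxb4 1460379_at they were Col16a1 (0.69), Accs (0.68), Rsrp1 (0.67), Wwp2 (0.66) and Ccm2l (0.63), and 0.53 to 0.61 without CMP. For Hoxb2 they were Gpr171 (0.69), Ppfibp2 (0.69), Msantd4 (0.68), Npc1 (0.67) and Cldn12 (0.66), although Hoxb2 lay below background. Hoxb3 and Hoxb4 themselves correlated at 0.35, and at 0.14 without CMP. The replicates share groups and processing, so no p is given.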

How the data were processed

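Per the labels, total RNA from cells sorted into extraction buffer was amplified in 2 cycles, biotin-labelled and hybridised to 51 arrays. The authors deposited a linear intensity for each probe set, from RMA, which the submitters' processing notes name. Which RMA version, and which arrays it normalised as 1 set, the sources used here do not say. Here log2 was taken of the deposited intensities, the 2 runs of 8 CMP replicates were averaged, and 64 control probe sets and 10092 with several or no annotated genes were left out, leaving 34945. Genotypes were compared within each population, and populations in 1 model of 8 groups, with limma 3.58.1 in R 4.3.3 (lmFit, eBayes with intensity trend). Calls need a Benjamini-Hochberg adjusted p below 0.05 over all 34945. Folds against a group below background raise the dimmer group's replicates to the background level, and do not allow for the spread between replicates. The fits were tested on simulated data. Arrays have no read depth: precision is set by how many there are.

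Every probe set of the 3 genes is named. Of other lists, up to 4 called probe sets each are named, the largest first, and the 5 genes most alike per gene. Members and lists were chosen with earlier results of these data known. The alternatives changed normalisation, filter, offset, trend, weights, covariates, blocks and replicates.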

Additional observations from a re-analysis of the deposited data

Results flagged for a closer look

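Within the 40 groups of 4 or more replicates (5 probe sets in 8 groups), 2 held 1 replicate that stood apart from the others by Dixon's test, and chance alone gives such a gap in about 1 in 20 groups. Hoxb3 1456229_at was 4.64 in Mll-AF9 CMP replicate 1, just above the background level, where the other 3 replicates ran over 4.16 to 4.24. Hoxb4 1460379_at was 7.14 in wild type HSC replicate 1, where the other 4 replicates ran over 5.84 to 6.20. The same HSC replicate held the highest Hoxb3 level of its group, 6.89 by 1456229_at. Neither replicate was left out of the values above.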

How the results depend on the processing

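Over 115 comparisons of single probe sets and 5135 alternatives, 5015 kept their direction and their side of the threshold, 17 lost a call, 21 gained one, 82 changed sign without a call on either side, and 0 reversed a call. Most comparisons had no call to lose, and many alternatives left out a replicate of a group outside the comparison, which cannot move its difference. Of the lost calls, 7 were Hoxb3 1456229_at in wild type GMP against HSC and 6 the same probe set in Mll-AF9 GMP against wild type HSC. The other 4 were Hoxb4 1451761_at in wild type GMP against CMP. Among 297 repeated counts of called probe sets, 280 stayed within 1.5 times the main count. In Mll-AF9 against wild type CLP the count of 0 became 1 (Hoxb3 1456229_at) in 1 model of all 8 groups, and 1 in that model with the 3′ minus 5′ difference as covariate, an alternative chosen after the data were seen, and ran over 0 to 1 when replicates were left out in turn. Without the CMP arrays the 8 population calls in wild type became 1, because 6 of the 8 use CMP and the GMP against HSC call of Hoxb3 missed the threshold, and the 1 call in Mll-AF9 GMP against wild type HSC became 0 (adjusted p = 0.0526). With replicates left out in turn, that count ran over 0 to 1, and the count of 0 in Mll-AF9 populations over 0 to 2. The highest of these, 2, came without Mll-AF9 HSC replicate 2 or 3.

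Labels give the groups replicate numbers, and a fit with the replicate block was made for each comparison. Deviations of same-numbered Mll-AF9 and wild type replicates correlated at -0.15 to 0.06 in GMP, -0.06 to 0.15 in CMP, -0.27 to 0.15 in CLP and -0.27 to 0.01 in HSC. Within a population the numbers thus showed no clear pairing of the genotypes. Whether they pair populations of 1 genotype was not tested, and the main population tests were unpaired. Y-linked genes were above a mean of 6 in the same replicate numbers in wild type GMP and CMP, but not in wild type CLP and HSC. With the replicate block, Hoxb3 1456229_at in CLP was -1.23 (adjusted p = 0.124) and Hoxb4 1460379_at in GMP 0.13 (adjusted p = 0.95), and Hoxb4 1451761_at in wild type GMP against CLP gained a call (0.39, adjusted p = 0.0456). Signal near background limits Hoxb2, Hoxb4 1451761_at and Hoxb3 in GMP and CMP.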
